A study of Mus musculus with 47 samples.

Results

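Myelin is the stack of membrane layers that oligodendrocytes of the brain wrap around axons, and 9 genes that mature oligodendrocytes use to build it were followed in the mouse hypothalamus after fibroblast growth factor 1 (FGF1) was given into the brain. They were chosen by name from the deposited table of raw counts: Mbp, Mobp, Cnp, Cldn11, Mal, Mog, Mag, Opalin and Ugt8a, 9 of the 14221 genes in it. Messenger RNA of the hypothalamus was sequenced in bulk in 47 libraries, each from 1 male mouse. All 47 mice were ob/ob, carrying the Lep mutation that removes leptin, and were 11 weeks old by their labels, so that every vehicle mouse shared the obesity of the genotype. Mice were given a single injection of 3 µg FGF1 or of vehicle into the cerebral ventricles (icv), and by their labels the vehicle mice were pair-fed to the food intake of the FGF1 mice. The question was how the hypothalamus differed between FGF1 and vehicle at 1, 5 and 42 days after the injection.

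On Day 1 there were 4 vehicle mice labelled non-diabetic and 10 FGF1 mice. On Day 5 there were 7 vehicle mice labelled non-diabetic, 7 vehicle mice labelled diabetic and 9 FGF1 mice. The notes on extraction name fewer vehicle mice for Day 5 than the labels do, and by the methods mice that did not reach a set blood glucose were left out as not diabetic, so what separates the vehicle labels is not clear from the sources used here. Both Day 5 vehicle comparisons are therefore given by label only. On Day 42 there were 5 vehicle mice labelled non-diabetic and 5 FGF1 mice. No group was lean or without an injection and no vehicle group was fed freely throughout, which limits the comparisons to FGF1 mice, themselves not pair-fed, against pair-fed vehicle mice, all ob/ob. Pair-feeding ended after 5 days, so the Day 42 vehicle mice were not pair-fed for most of their course. By the paper the days had independent cohorts of mice. The Day 5 libraries bear names of another series than those of Days 1 and 42. Day therefore cannot be told apart from cohort or preparation, and levels were compared only within a day.

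Compact myelin forms when the cytoplasmic faces of the membrane are drawn together by basic proteins, while wide lipid-rich layers are sealed at their edges by tight junctions and kept in touch with the axon by adhesion proteins. Oligodendrocytes switch this set of genes on as they leave the newly formed stage, under the transcription factors Sox10 and Myrf, and in the adult hypothalamus new oligodendrocytes continue to arise from precursors, the median eminence included. The transcripts of Mbp and Mobp are carried into the processes and translated there, so the transcript level of a tissue sample counts processes as well as cell bodies.

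By role, Mbp (chr18:82475146-82585637, plus strand of GRCm38) and Mobp (chr9:120149707-120181484, plus strand) encode basic proteins of compact myelin. Cnp (chr11:100574904-100591729, plus strand) encodes an enzyme that keeps the cytoplasmic channels of myelin open, and Cldn11 (chr3:31149920-31164324, plus strand) encodes the claudin of the tight junctions between layers. Mal (chr2:127633226-127656695, minus strand) encodes a small proteolipid that sorts myelin membrane. Mog (chr17:37010743-37023398, minus strand) encodes a glycoprotein of the outermost layer, Mag (chr7:30899176-30914873, minus strand) an adhesion glycoprotein of the layer next to the axon, and Opalin (chr19:41061710-41077113, minus strand) a membrane glycoprotein of myelinating oligodendrocytes. Ugt8a (chr3:125865271-125938619, minus strand) encodes the transferase that makes galactosylceramide, the chief glycolipid of myelin. An exon of Cnp overlaps an exon of Dnajc7 on the other strand, and Mobp overlaps Gm38642 on the same strand.

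The myelin genes and the markers of the labelled tissue were present in every group. Each of the 9 genes was counted in all 47 libraries, the lowest single value being 18 counts of Opalin in Day 1 FGF1 replicate 1. Together they took a mean of 0.302% of the counts (SD 0.0448) in the Day 1 vehicle mice and 0.200% (SD 0.0465) in the Day 1 FGF1 mice, or 0.185% without FGF1 replicates 1 and 6. On Day 5 the mean share was 0.418% (SD 0.0454) in the non-diabetic vehicle mice, 0.401% (SD 0.0521) in the diabetic vehicle mice and 0.525% (SD 0.0208) in the FGF1 mice. On Day 42 it was 0.447% (SD 0.0889) with vehicle and 0.478% (SD 0.0644) with FGF1. Of the genes that mark hypothalamic neurons all 8 listed were measured. Pmch, of neurons of the lateral hypothalamus, had a mean of 935.9 CPM in the Day 1 vehicle mice, 69.5 in the Day 5 non-diabetic vehicle mice and 732 in the Day 42 vehicle mice, while Oxt, of magnocellular neurons, had means of 27.5, 152 and 14.4 CPM. These differences between days cannot be told apart from cohort or preparation, and whether dissection differed is not stated in the sources used here.

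Depth differed between the days and in a few libraries. Total counts ran from 37281555 to 42887789 in the Day 1 vehicle mice and from 1243280 to 47082403 in the Day 1 FGF1 mice, the lowest being replicate 1. In the Day 5 groups they ran from 8005968 to 9864890 (non-diabetic vehicle), from 7579695 to 12451642 (diabetic vehicle) and from 7695346 to 30009258 (FGF1), where replicates 8 and 9, with 30009258 and 27922117, stood apart from the rest. On Day 42 the vehicle libraries held 25020821 to 42977914 counts and the FGF1 libraries 19416026 to 43934003. Besides the shallow replicate 1, Day 1 FGF1 replicate 6 stood apart by the myelin genes themselves. Values without these libraries, chosen after seeing the data, are given for the share, order, spread and correlations of the 9, for some of their log2 fold changes and for the sums of the 9 and of the other myelin proteins. The remaining Day 1 sums and fold changes of lists include all 10 FGF1 mice.

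Levels are given as CPM, a gene's counts relative to the total of its library in edgeR's usual unit, scaled between libraries by the trimmed mean of M values (TMM). Sums and ratios of genes use plain CPM. The gene called most abundant in a list had the highest mean CPM over all libraries, whatever its length and not in each group. The 9 genes are ranked against each other only as CPM per kilobase of exon. On that scale the mean of Mbp was highest and that of Mobp next in each of the 7 groups. These places were not always apart beyond the spread: Mbp and Mobp lay within their summed SDs in both Day 1 groups, the Day 5 FGF1 mice and the Day 42 vehicle mice, and Mobp and Mal in the Day 1 vehicle, Day 5 FGF1 and Day 42 FGF1 mice. In the Day 5 FGF1 mice the mean level per kilobase was 229.8 for Mbp, 196 for Mobp, 171 for Mal, 168 for Cnp, 115 for Cldn11, 56.1 for Mag, 44.4 for Mog, 30.6 for Ugt8a and 8.16 for Opalin. Mal and Cnp did not differ beyond their spread there, and which of them followed Mobp changed between groups. In the Day 1 FGF1 mice the order by mean level per kilobase was Mbp (112), Mobp (82.8), Cnp (53.8), Mal (38.4), Cldn11 (26.1), Mag (24.6), Mog (15.8), Ugt8a (5.58) and Opalin (3.46). That order was the same without replicate 1, replicate 6 or both, although Cldn11 and Mag were nearly level without replicate 6. Opalin, with the lowest mean of the 9 in the other 6 groups, stood level with Ugt8a in the Day 1 vehicle mice. There Ugt8a was at 5.99 CPM per kilobase and Opalin within its spread of that. Ugt8a and Opalin also lay within their summed SDs in the Day 1 FGF1 and Day 42 vehicle mice.

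On Day 1, compared to ask what FGF1 did soon after the injection, most of the myelin genes were lower after FGF1 than after vehicle. At an adjusted p under 0.05 (edgeR, Benjamini-Hochberg over 14221 genes), 7 of the 9 fell and 0 rose, beside 21.6% of all genes that fell and 23.4% that rose. The same 7 fell by more than 0.5 on the log2 scale, which 8.05% of all genes did. The median log2 fold change of the 9 was -0.62, beside 0.0067 for all genes. In bulk tissue fewer cells of a type and less RNA per cell cannot be told apart, and this holds for each difference given here.

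Mal, the sorting proteolipid, measured 243, 446, 286 and 324 CPM in the 4 vehicle mice and from 78.7 to 177 CPM, with a median of 91.3, in the 10 FGF1 mice. Every FGF1 mouse lay below every vehicle mouse, with a clear gap between the groups. Mal fell by 1.61 (SE 0.14) on the log2 scale, to 0.327 times the vehicle level (edgeR adjusted p = 7.90e-13, lower in 10 of 10 mice, two-sided exact permutation p = 0.000999). Mog, the protein of the outermost layer, measured 71.6, 94.8, 72.6 and 84.3 CPM with vehicle and from 15.7 to 49.3 CPM, with a median of 24.2, with FGF1. Here too the groups did not overlap, and the highest FGF1 mouse was replicate 6. Mog fell by 1.62 (SE 0.16) on the log2 scale, to 0.326 times the vehicle level (edgeR adjusted p = 1.47e-11, lower in 10 of 10 mice, two-sided exact permutation p = 0.000999). That exact p is the smallest that 10 against 4 mice allow, and each exact p given is two-sided and unadjusted, 1 of 45 such tests over 9 genes and 5 comparisons within a day. Among all genes, 6.81% had every FGF1 mouse below every vehicle mouse, and among the 9 these were Mal and Mog.

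Cnp, the enzyme of the cytoplasmic channels, measured 319, 261, 264 and 355 CPM with vehicle and from 149.8 to 289 CPM, with a median of 186, with FGF1. Only the highest FGF1 mouse, replicate 6, reached into the vehicle range. Cnp fell by 0.62 (SE 0.10) on the log2 scale (edgeR adjusted p = 3.00e-06, 9 of 10 mice below all vehicle mice, exact permutation p = 0.00300). Cldn11, the tight junction claudin, measured 82.1, 115, 63.95 and 92.2 CPM with vehicle and from 21.9 to 104 CPM, with a median of 38.05, with FGF1. FGF1 replicates 6 and 10 lay among the vehicle mice and the other 8 below them. Cldn11 fell by 0.87 (SE 0.21) on the log2 scale (edgeR adjusted p = 0.000726, 8 of 10 mice below all vehicle mice, exact permutation p = 0.0280). With each of 14 mice left out in turn that exact p ran from 0.00839 to 0.0874, and it was above 0.05 without vehicle replicate 2 (0.0874) or 4 (0.0559).

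Both basic proteins of compact myelin were also lower. Mbp measured 1434, 1130, 1019 and 1837 CPM with vehicle and from 741 to 1516 CPM, with a median of 868, with FGF1. The groups overlapped, FGF1 replicates 1, 6 and 8 standing at or above the lowest vehicle mouse. Mbp fell by 0.52 (SE 0.15) on the log2 scale (edgeR adjusted p = 0.00364, 7 of 10 mice below all vehicle mice, exact permutation p = 0.0230). Without vehicle replicate 4, at 1837 CPM, the change was -0.34 and no longer passed the test (edgeR adjusted p = 0.0758, within a range of 0.000195 to 0.0758 over the alternatives). The exact permutation p of Mbp ran from 0.00699 to 0.112 with each mouse left out in turn, and was above 0.05 without vehicle replicate 1 (0.0524) or 4 (0.112). Mobp ran from 682 to 1032 CPM with vehicle and from 422.5 to 812.5 CPM with FGF1, and fell by 0.56 (SE 0.12) on the log2 scale (edgeR adjusted p = 0.000127, 8 of 10 mice below all vehicle mice). Opalin, the least abundant, ran from 13.2 to 22.5 CPM with vehicle and from 6.15 to 16.7 CPM with FGF1, and fell by 0.84 (SE 0.19) on the log2 scale (edgeR adjusted p = 0.000284, 8 of 10 mice below all vehicle mice).

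Mag and Ugt8a did not pass the test on Day 1. Mag, the adhesion protein next to the axon, measured 104, 83.9, 84.3 and 154 CPM with vehicle and from 67.4 to 174 CPM, with a median of 91.4, with FGF1. Its groups lay over each other, and both the lowest and the highest mouse were FGF1 mice. The log2 fold change of Mag was -0.10 (SE 0.17, edgeR adjusted p = 0.663, 3 of 10 mice below all vehicle mice), and it was 0.14 without vehicle replicate 4. Ugt8a, the transferase, measured 21.8, 36.1, 22.2 and 28.6 CPM with vehicle and from 14.8 to 42.9 CPM, with a median of 24.0, with FGF1. Again the FGF1 mice spanned the vehicle mice on both sides. The log2 fold change of Ugt8a was -0.10 (SE 0.20, edgeR adjusted p = 0.715, 3 of 10 mice below all vehicle mice), and it was 0.069 without vehicle replicate 2, at 36.1 CPM.

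Leaving out the shallow library, Day 1 FGF1 replicate 1, gave -1.62 for Mal, -1.64 for Mog and -0.53 for Mbp on the log2 scale. Leaving out replicate 6, the highest FGF1 mouse for most of the 9, gave -1.70 for Mal, -1.78 for Mog, -1.08 for Cldn11 and -0.62 for Mbp. Without either library the genes that fell were the same 7.

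**Figure D1:**
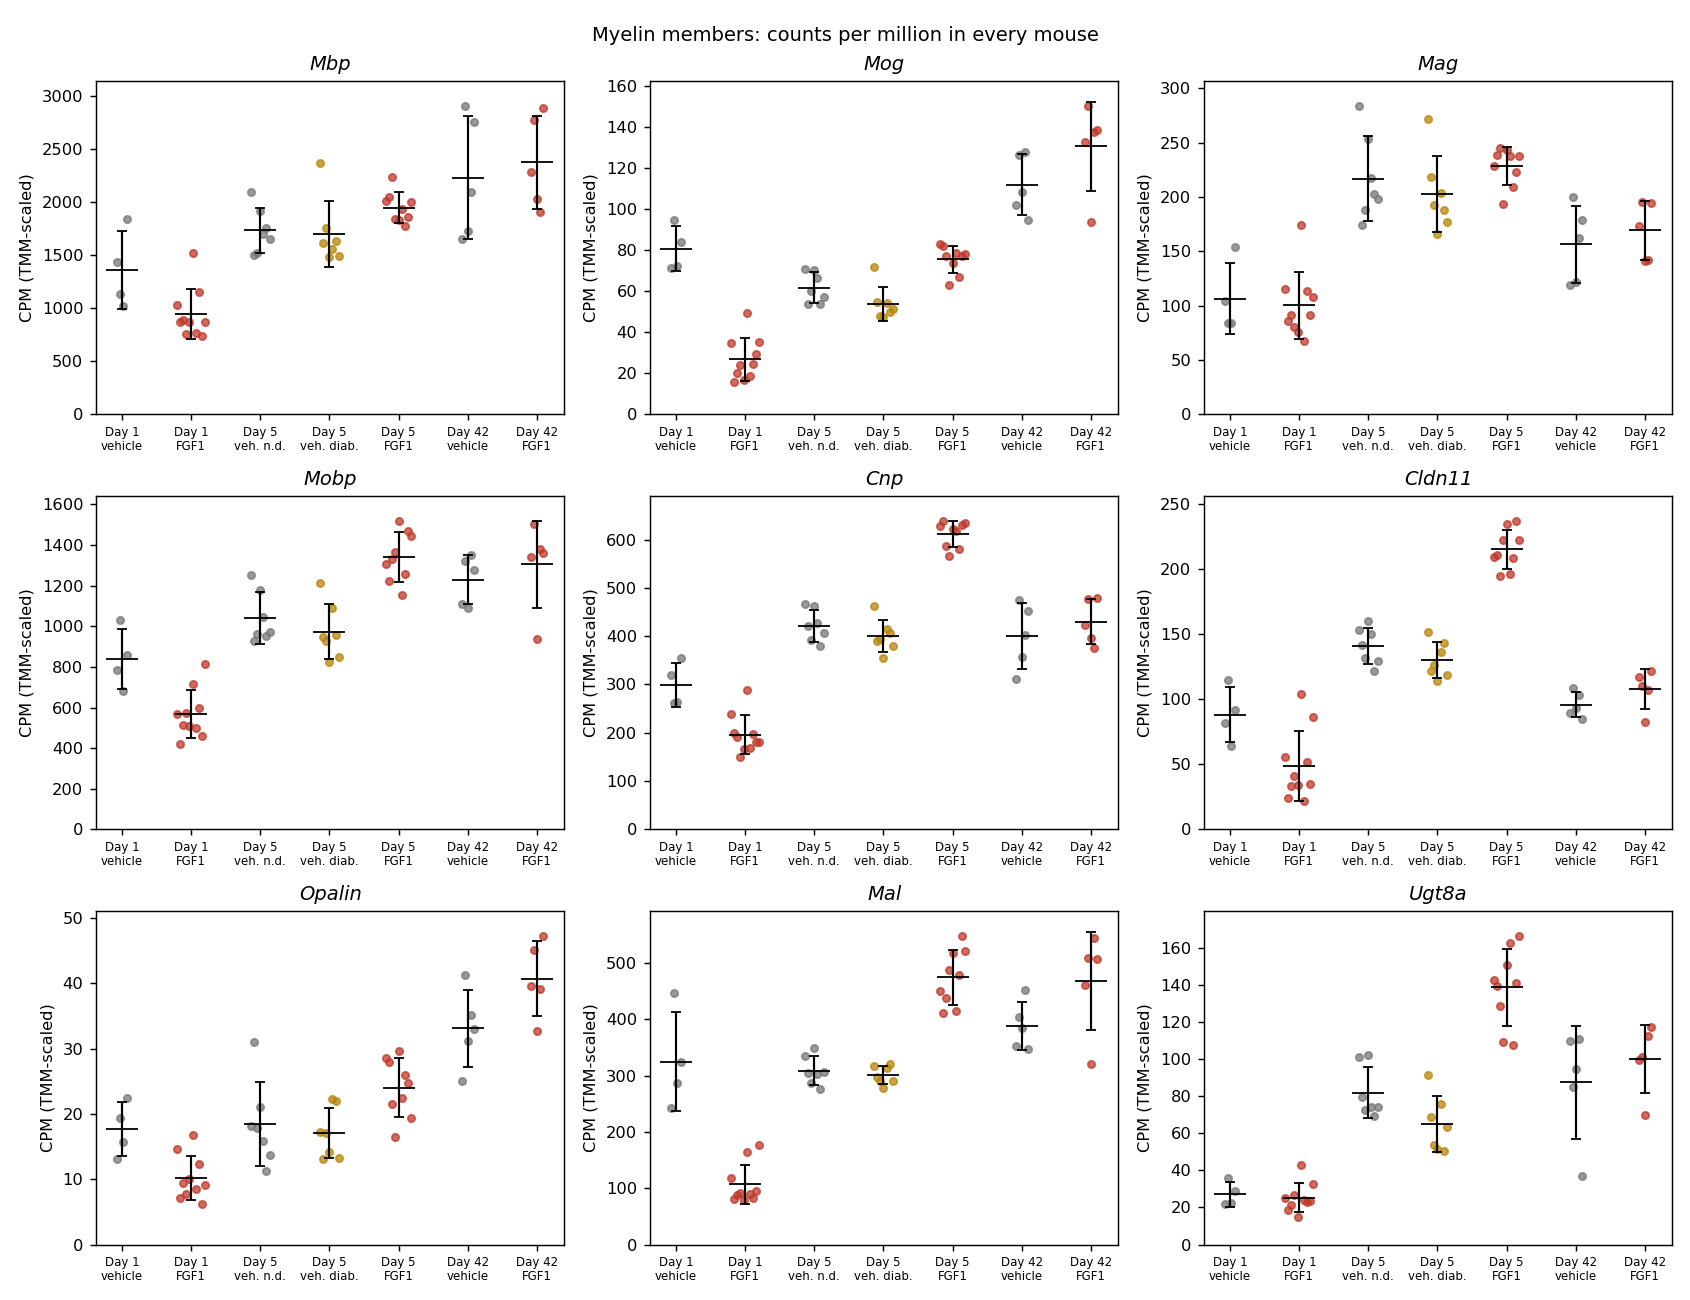
Level of each of the 9 myelin genes in every mouse, in CPM scaled by TMM (vertical axis, from 0), by group (horizontal axis: vehicle and FGF1 on Days 1, 5 and 42, with both Day 5 vehicle groups). Points are mice, and bars are the mean with its SD. The Mal and Mog points of the 10 Day 1 FGF1 mice lie below those of the 4 vehicle mice, and the Cnp, Cldn11, Mal and Ugt8a points of the 9 Day 5 FGF1 mice lie above those of both vehicle groups.

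On Day 5 most of the myelin genes stood on the other side of vehicle. Both vehicle groups were compared with the same 9 FGF1 mice, so these comparisons share samples. Against the non-diabetic vehicle mice 5 of the 9 rose and 0 fell (edgeR, adjusted p under 0.05), beside 3.25% of all genes that rose and 1.4% that fell. Of these 5, 4 rose by more than 0.5 on the log2 scale, which 1.31% of all genes did. Against the diabetic vehicle mice 6 of the 9 rose and 0 fell, beside 5.79% and 3.42% of all genes, and 4 rose by more than 0.5, which 2.36% of all genes did. The median log2 fold change of the 9 was 0.38 against the non-diabetic and 0.49 against the diabetic vehicle mice, beside -0.0064 and -0.0071 for all genes.

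Ugt8a, which makes the glycolipid of myelin, ran from 69.4 to 102 CPM (median 74.3) in the 7 non-diabetic vehicle mice, from 50.6 to 91.2 CPM (median 63.2) in the 7 diabetic vehicle mice and from 108 to 166 CPM (median 141) in the 9 FGF1 mice. The lowest FGF1 mouse lay above the highest vehicle mouse of either group. Ugt8a rose by 0.76 (SE 0.17) on the log2 scale against the non-diabetic vehicle mice, a ratio of 1.69 (edgeR adjusted p = 0.00385, higher in 9 of 9 mice, exact permutation p = 0.000175). Against the diabetic vehicle mice it rose by 1.10 (SE 0.18), a ratio of 2.14 (edgeR adjusted p = 1.62e-05, higher in 9 of 9 mice, exact permutation p = 8.74e-05). This last exact p is the smallest that 9 against 7 mice allow.

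Mal ran from 276 to 349.6 CPM (median 305) with non-diabetic vehicle, from 278 to 321 CPM (median 298) with diabetic vehicle and from 410.5 to 548 CPM (median 478) with FGF1. There was no overlap with either vehicle group. Mal rose by 0.62 (SE 0.13) against the non-diabetic vehicle mice on the log2 scale (edgeR adjusted p = 0.00151, higher in 9 of 9 mice, exact permutation p = 8.74e-05). It rose by 0.66 (SE 0.13) against the diabetic vehicle mice (edgeR adjusted p = 0.000471, higher in 9 of 9 mice, exact permutation p = 8.74e-05). Cnp ran from 380.1 to 466 CPM (median 420.5) and from 355 to 463 CPM (median 395) in the non-diabetic and diabetic vehicle mice, and from 566.5 to 639 CPM (median 621.6) in the FGF1 mice. The FGF1 mice sat close together, well clear of both vehicle groups. Cnp rose by 0.54 (SE 0.091) and by 0.61 (SE 0.091) against the non-diabetic and diabetic vehicle mice on the log2 scale (edgeR adjusted p = 7.97e-05 and 5.16e-06, higher in 9 of 9 mice in each).

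Cldn11 ran from 122 to 160 CPM (median 142) with non-diabetic vehicle, from 114.5 to 152 CPM (median 127) with diabetic vehicle and from 195 to 237 CPM (median 211) with FGF1, again with no overlap. Cldn11 rose by 0.72 (SE 0.19) on the log2 scale against the diabetic vehicle mice (edgeR adjusted p = 0.00804, higher in 9 of 9 mice). Against the non-diabetic vehicle mice it rose by 0.61 (SE 0.19, edgeR adjusted p = 0.0474, higher in 9 of 9 mice, exact permutation p = 8.74e-05). That last call was near the threshold and was lost in 33 of 57 alternatives, with log2 fold changes of 0.58 to 0.67 and adjusted p from 1.19e-08 to 0.117. Every FGF1 mouse lay above every vehicle mouse for 2.38% of all genes with the non-diabetic and 3.63% with the diabetic group, and for Cnp, Cldn11, Mal and Ugt8a among the 9 with each.

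The remaining 5 genes overlapped between vehicle and FGF1. Mobp ran from 925 to 1253 CPM with non-diabetic vehicle, from 823 to 1212 CPM with diabetic vehicle and from 1153 to 1519 CPM with FGF1. It rose by 0.36 (SE 0.10) and 0.46 (SE 0.10) against the non-diabetic and diabetic vehicle mice on the log2 scale (edgeR adjusted p = 0.0298 and 0.00224, 7 and 8 of 9 mice above all vehicle mice). Mog ran from 53.6 to 70.9 CPM, from 47.6 to 71.8 CPM and from 62.9 to 83.0 CPM in the same order of groups. For both genes most FGF1 mice stood above the vehicle mice and a few among them. Mog rose by 0.49 (SE 0.15) against the diabetic vehicle mice on the log2 scale (edgeR adjusted p = 0.0263, 7 of 9 mice above all vehicle mice) and did not pass the test against the non-diabetic vehicle mice, at 0.29 (SE 0.15, edgeR adjusted p = 0.3115, 7 of 9 mice above all vehicle mice, exact permutation p = 0.00315). There Mog passed with limma voom (adjusted p = 0.00312), with Day 5 fitted alone (0.00514) and with the vehicle groups merged (0.02997), in a range of 0.00312 to 0.475. Without the deep FGF1 replicates 8 and 9, Mobp and Cldn11 against the non-diabetic vehicle mice were at 0.33 and 0.58 (edgeR adjusted p = 0.106 and 0.117) and Mog against the diabetic vehicle mice at 0.47 (adjusted p = 0.0635), and none of these passed. Over all alternatives these 3 adjusted p ran from 8.87e-06 to 0.106, from 1.19e-08 to 0.117 and from 5.06e-07 to 0.0648. These calls did not rest on the deep libraries alone. The Mobp call was lost in 10 of 57 alternatives, with the fold threshold, without both deep libraries and without any of 8 single mice, which were FGF1 replicate 5 (adjusted p = 0.0611), 8 (0.0575) or 9 (0.0542) and non-diabetic vehicle replicate 2 (0.0651), 3 (0.0757), 5 (0.0535), 6 (0.0723) or 7 (0.06495). The Mog call was lost in 5 of 56, with the fold threshold, without both deep libraries and without diabetic vehicle replicate 3 (adjusted p = 0.0648), 4 (0.0562) or 6 (0.0551).

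Mbp, the most abundant, ran from 1502 to 2089 CPM with non-diabetic vehicle, from 1478 to 2367 CPM with diabetic vehicle and from 1769 to 2233 CPM with FGF1. Its log2 fold changes of 0.17 (SE 0.13) and 0.20 (SE 0.13) did not pass the test against the non-diabetic and diabetic vehicle mice (edgeR adjusted p = 0.594 and 0.402, exact permutation p = 0.0260 and 0.0309). Most FGF1 mice lay within the vehicle range. Mag and Opalin did not pass it either. Mag was at 0.075 (SE 0.14) and 0.17 (SE 0.14) on the log2 scale in the same order (edgeR adjusted p = 0.888 and 0.532, exact permutation p = 0.346 and 0.0537). Opalin was at 0.38 (SE 0.17) and 0.49 (SE 0.17) (edgeR adjusted p = 0.2604 and 0.0678, exact permutation p = 0.0407 and 0.00708). Several of these exact p depended on single mice, as leaving out each of 16 in turn showed. That of Opalin against the non-diabetic vehicle mice ran from 0.00400 to 0.0947 and was above 0.05 in 10 of 16, without FGF1 replicate 1, 2, 5, 7 or 8 or vehicle replicate 1, 3, 5, 6 (0.0947) or 7. The exact p of Mbp against the non-diabetic vehicle mice ran from 0.00320 to 0.0611, above 0.05 without vehicle replicate 2 (0.0611) or 3 (0.0589). Against the diabetic vehicle mice it ran from 0.000200 to 0.0671, above 0.05 in 6 of 16, without FGF1 replicate 3 or vehicle replicate 2, 4 (0.0671), 5, 6 or 7. The exact p of Mag against the diabetic vehicle mice ran from 0.00240 to 0.1197 and was under 0.05 in 4 of 16, without FGF1 replicate 4 or 7 or vehicle replicate 1 (0.00240) or 2. For these genes the call also depended on the tool and on whether Day 5 was fitted alone, with its own estimate of spread. With limma voom Mbp passed in both comparisons (adjusted p = 0.0476 and 0.00490, range over alternatives 0.0476 to 0.7702 and 0.00490 to 0.552), and with Day 5 fitted alone it passed against the diabetic vehicle mice (adjusted p = 0.0479). Mag passed against the diabetic vehicle mice with limma voom (adjusted p = 0.0251, range 0.0251 to 0.694). Opalin passed against the diabetic vehicle mice with DESeq2 (adjusted p = 0.0491), limma voom (0.000774) and Day 5 fitted alone (0.0166), in a range of 0.000774 to 0.1497. Against the non-diabetic vehicle mice it passed with limma voom (adjusted p = 0.00461) and with the vehicle groups merged (0.0405), in a range of 0.00461 to 0.501. It also passed against the diabetic vehicle mice without Day 1 FGF1 replicate 6 (0.49), Day 5 FGF1 replicate 4 (0.55), Day 5 diabetic vehicle replicate 5 (0.57) or Day 5 non-diabetic vehicle replicate 2 (0.49), with log2 fold changes in parentheses. Against the diabetic vehicle mice 7 of the 9 rose with DESeq2, 9 with limma voom and 8 with Day 5 fitted alone. Against the non-diabetic vehicle mice 5, 8 and 6 did. The shares of all genes given above belong to the main edgeR fit, so these counts have no share beside them. They do not show whether the 9 gained more calls than other genes did with those fits.

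The vehicle groups of Day 5, compared to ask whether the label diabetic went with a difference among vehicle mice, gave no call among the 9 genes. With diabetic minus non-diabetic vehicle, 0 of the 9 rose or fell at an adjusted p under 0.05 by edgeR, and 0 by DESeq2 and by limma, beside 0% of all genes higher and 0% lower by edgeR. At an unadjusted p under 0.05 edgeR counted 0 of the 9 and 193 of all genes. Limma voom and edgeR with Day 5 fitted alone each counted 2 of the 9. For those fits no count over all genes is given here, so whether 2 of 9 is more than the share of all genes is not shown. All 9 log2 fold changes were negative, from -0.34 for Ugt8a (SE 0.18, exact permutation p = 0.0379, 5 of 7 diabetic mice below all non-diabetic mice) to -0.029 for Mbp. Their median was -0.10. The exact p of Ugt8a ran from 0.00699 to 0.0734 when each of 14 mice was left out in turn. It was above 0.05 in 6 of these, without diabetic vehicle replicate 3, 4, 6 or 7 or non-diabetic vehicle replicate 1 or 4. The exact p of Mog was 0.0740 with all mice and then ran from 0.00758 to 0.141. It was under 0.05 only without diabetic vehicle replicate 1 (0.00758). For Mbp and Opalin the sign depended on single libraries, with 0.021 and 0.057 as the highest values when each library was left out in turn.

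On Day 42, compared to ask what lasted, the groups overlapped for all 9 genes. By edgeR 0 of the 9 passed an adjusted p under 0.05, and 0 by DESeq2 and by limma, beside 0% of all genes higher and 0% lower by edgeR. At an unadjusted p under 0.05 edgeR counted 0 of the 9 and 776 of all genes. Mal measured 353, 404, 383.5, 451 and 346 CPM in the vehicle mice and 461, 508, 321, 543 and 507 CPM in the FGF1 mice. All FGF1 mice but replicate 3, the lowest of the day, stood above the vehicle mice. Mog measured 102, 127, 108, 128 and 94.7 CPM with vehicle and 133, 151, 93.9, 138 and 139 CPM with FGF1, in the same pattern. The log2 fold changes were 0.27 for Mal (SE 0.16, exact permutation p = 0.127) and 0.22 for Mog (exact permutation p = 0.183), and the smallest exact p that 5 against 5 mice allow is 0.00794. Without FGF1 replicate 3 Mal was at 0.38 (exact permutation p = 0.0159, edgeR adjusted p = 0.478) and Mog at 0.32 (exact permutation p = 0.0238, edgeR adjusted p = 0.6596). The edgeR adjusted p ran up to 1 over the alternatives for both. The exact permutation p of Mobp, Cldn11 and Opalin was also under 0.05 without that mouse, at 0.0476 for Mobp and 0.0317 for Cldn11, and that of Opalin was 0.0317 without vehicle replicate 2.

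All 9 log2 fold changes of Day 42 were positive, from 0.085 (Mobp) to 0.30 (Opalin), with a median of 0.17 beside -0.012 for all genes. With each mouse left out in turn they ran from 0.0017 to 0.21 for Mbp, from 0.029 to 0.18 for Mobp, from 0.027 to 0.17 for Cnp, from 0.031 to 0.22 for Mag, from 0.12 to 0.25 for Cldn11 and from 0.21 to 0.39 for Opalin. The sizes thus rested on single mice. Ugt8a measured 109.7, 85.1, 94.7, 111 and 36.7 CPM with vehicle and 99.5, 101, 69.7, 113 and 117 CPM with FGF1. The low vehicle value was that of replicate 5. Ugt8a was at 0.19 on the log2 scale, and at -0.0030 without that mouse.

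Whether the response to FGF1 differed between days was tested as a difference of log2 fold changes, with the non-diabetic vehicle group on Day 5. These differences share groups with each other and with the comparisons within a day. Of the 9 genes 8 had a higher log2 fold change on Day 5 than on Day 1 (edgeR, adjusted p under 0.05) and 0 a lower one, beside 12.4% of all genes higher and 14.2% lower. Mal differed by 2.23 (SE 0.20, adjusted p = 1.70e-12), Mog by 1.91 (SE 0.22, adjusted p = 2.51e-09), Cldn11 by 1.47 (SE 0.28, adjusted p = 6.99e-05) and Cnp by 1.16 (SE 0.14, adjusted p = 6.20e-09). Mal and Mog, lowest against vehicle on Day 1, thus had the widest spans between these days. Mag was the exception, with a difference of 0.17 (SE 0.22, edgeR adjusted p = 0.599). The differences of Mbp and Ugt8a were 0.69 (SE 0.20, edgeR adjusted p = 0.00716) and 0.86 (SE 0.26, adjusted p = 0.01175). Each of these calls was lost without 1 vehicle mouse, while the difference kept its direction. Without Day 1 vehicle replicate 4 Mbp was at 0.51 (edgeR adjusted p = 0.0524), and without replicate 2 Ugt8a was at 0.69 (edgeR adjusted p = 0.0670). Over the alternatives these adjusted p ran from 0.000645 to 0.0524 for Mbp and from 0.00137 to 0.0670 for Ugt8a.

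Between Day 42 and Day 1, 7 of the 9 had a higher log2 fold change on Day 42 and 0 a lower one, beside 11.2% of all genes higher and 14.3% lower. Mal differed by 1.88, Mog by 1.84 and Opalin by 1.14 on the log2 scale, while Mag, at 0.21 (SE 0.24), and Ugt8a, at 0.29 (SE 0.29), did not pass the test (edgeR adjusted p = 0.559 and 0.492). Mbp differed by 0.61 (SE 0.22, adjusted p = 0.0348), a call that was lost in 7 of 56 alternatives, each without 1 mouse. These were Day 1 vehicle replicate 4 (0.43, adjusted p = 0.145) and replicate 1 (0.59, 0.0623), Day 42 FGF1 replicates 2 (0.55, 0.0710) and 5 (0.53, 0.0760), and Day 42 vehicle replicates 1 (0.52, 0.0744), 3 (0.53, 0.0759) and 4 (0.59, 0.0528), where the second value is the edgeR adjusted p. Over all alternatives that adjusted p ran from 0.00597 to 0.145. Between Day 42 and Day 5, 0 of the 9 passed by edgeR, and 0 by DESeq2 and by limma, beside 0.295% of all genes higher and 0.647% lower. At an unadjusted p under 0.05 edgeR counted 2 of the 9, beside 1419 of all 14221 genes. The 2 were Ugt8a at -0.57 (SE 0.27) and Cnp at -0.43 (SE 0.14) on the log2 scale. The median difference of the 9 was 1.16 for Day 5 minus Day 1, 0.73 for Day 42 minus Day 1 and -0.28 for Day 42 minus Day 5, beside -0.021, -0.022 and -0.013 for all genes.

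**Figure D2:**
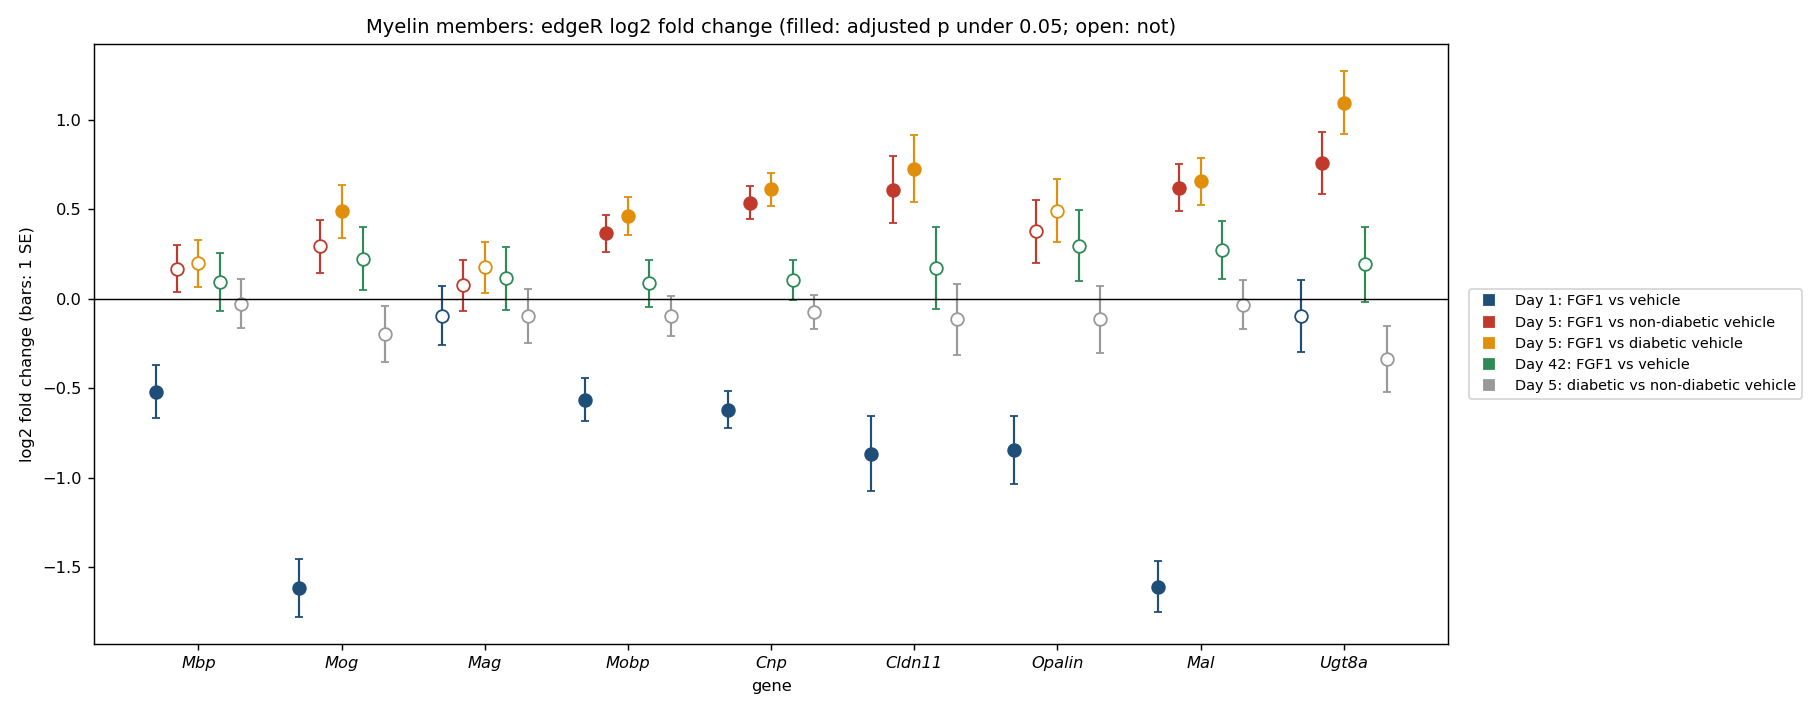
Log2 fold change of each of the 9 myelin genes (vertical axis) in the 5 comparisons within a day (FGF1 against vehicle on Day 1, against each vehicle group on Day 5 and on Day 42, and diabetic against non-diabetic vehicle on Day 5). Points are edgeR estimates, bars 1 SE, and filled points passed an adjusted p under 0.05. The 7 filled points of Day 1 lie below 0, the 5 and 6 filled points of Day 5 lie above it, and none is filled on Day 42.

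The 9 genes did not keep their proportions, as ratios within each library show. These ratios were chosen after their values were seen and are given without a test. Mal over Mag, both in CPM, ran from 2.10 to 5.32 (median 2.87) in the Day 1 vehicle mice and from 0.730 to 1.64 (median 1.03) in the Day 1 FGF1 mice. Mog over Mag ran from 0.547 to 1.13 and from 0.183 to 0.327 in the same groups. Within single libraries, then, Mal and Mog were low relative to Mag in every Day 1 FGF1 mouse, replicate 6 included. Ugt8a over Mbp on Day 5 ran from 0.0395 to 0.0535 with non-diabetic vehicle, from 0.0305 to 0.0486 with diabetic vehicle and from 0.0575 to 0.0840 with FGF1, with no overlap. The share of Mbp in the summed CPM of the 9 was 38.5% (SD 2.41, n = 9) in the Day 5 FGF1 mice, beside 43.0% (SD 1.54, n = 7) and 44.0% (SD 2.39, n = 7) in the non-diabetic and diabetic vehicle mice.

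Within a group the 9 genes tended to be high or low together. Each gene's log2 of CPM plus 0.5 was centred on its group mean, and the mean of the 9 deviations was taken for each mouse. The widest was Day 1 FGF1 replicate 6, at 0.77 with 9 of 9 genes above their group mean, and the next highest in that group were replicate 10 at 0.34 and replicate 1 at 0.26. At the low end stood Day 1 FGF1 replicate 2 at -0.36 and Day 42 FGF1 replicate 3 at -0.35. Mice with 8 or 9 genes on 1 side of the group mean were 7 of 10 in the Day 1 FGF1 group and 1 of 9 in the Day 5 FGF1 group, the most even group. The SD of these means was 0.36 in the former and 0.082 in the latter, beside 0.22 (Day 1 vehicle), 0.16 and 0.17 (non-diabetic and diabetic vehicle of Day 5), 0.17 (Day 42 vehicle) and 0.22 (Day 42 FGF1). The genes' own SD on this scale had a median of 0.41 over the 9 in the Day 1 FGF1 group, beside 0.21 over all genes, and of 0.13 beside 0.11 in the Day 5 FGF1 group. Without Day 1 FGF1 replicates 1 and 6 the SD of the means of that group was 0.24 and the median SD of the 9 genes 0.30.

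Day 1 FGF1 replicate 6 summed to 3070 CPM over the 9 genes, where the other 9 mice of its group ran from 1661 to 2308 CPM. Its sums over other marker lists, each with the range of those 9 mice, were 3186 CPM for other myelin proteins (1992 to 3118), 1490.0 CPM for other mature oligodendrocyte markers (1156 to 1893), 550.4 CPM for myelin lipid synthesis (553 to 623), 755 CPM for precursor and newly formed oligodendrocytes (727 to 902), 4755 CPM for astrocytes (3883 to 4548), 265 CPM for microglia (201 to 262) and 3421 CPM for neurons (3219 to 3924). Other myelin proteins, astrocyte and microglial genes were thus above their range in that mouse, mature marker, precursor and neuronal genes within it, and lipid synthesis genes just below it. On Day 1 the 7 falls were as large or larger without this library.

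**Figure D3:**
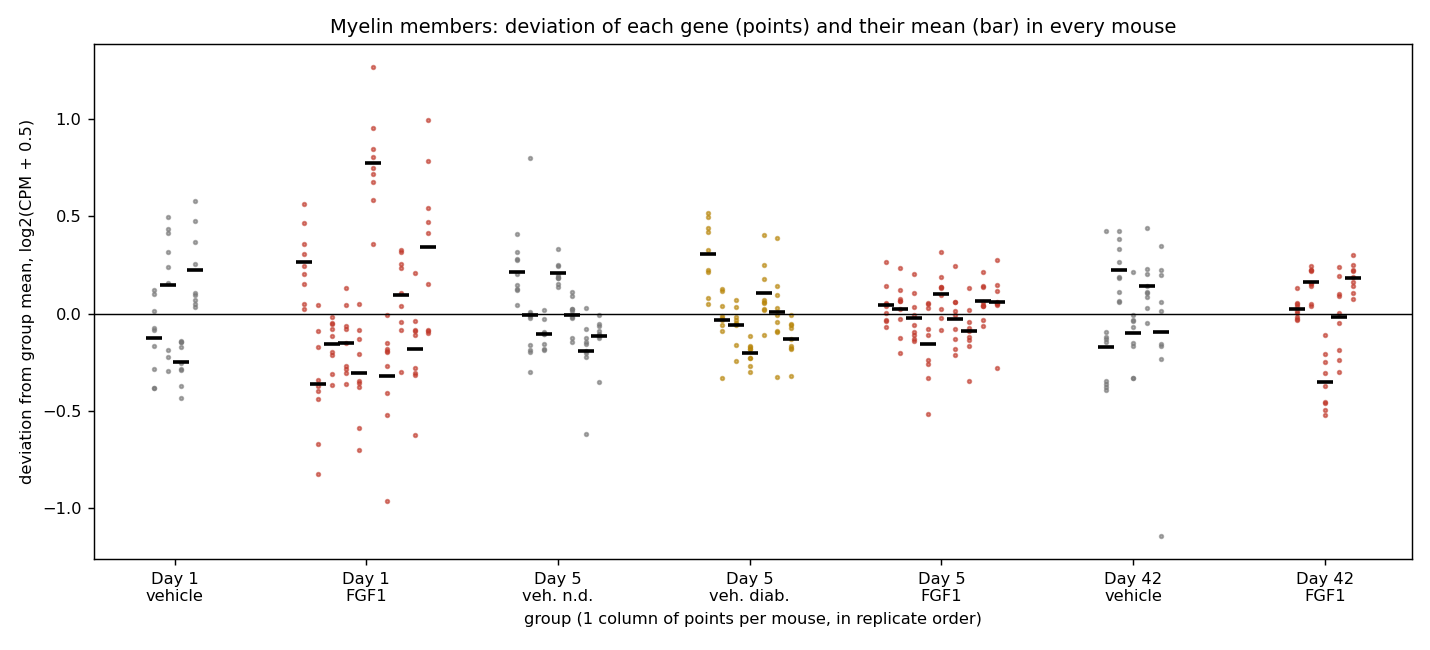
Deviation of each of the 9 myelin genes (points) and their mean (bars) from the group mean of log2 of CPM plus 0.5 (vertical axis), for each mouse (horizontal axis, by group). In Day 1 FGF1 replicate 6 all 9 points lie above 0 and the mean is 0.77, while the means of the Day 5 FGF1 mice keep close to 0.

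Over the 47 libraries, with each gene centred on its group mean, the 36 pairs among the 9 genes had Pearson correlations from 0.163 (Mbp and Ugt8a) to 0.908 (Mbp and Mag), with a median of 0.543. Mag and Cnp (0.883) and Mbp and Cnp (0.870) made a close trio with Mbp and Mag. Mog and Cldn11 (0.831), Cldn11 and Mal (0.805) and Mobp and Mal (0.805) made a chain, and Mbp had 0.241 with Mal. The trio and the chain were little changed without 1 mouse, Day 1 FGF1 replicate 6. Mbp and Mag were then at 0.883, Mag and Cnp at 0.844 and Mbp and Cnp at 0.834. Mog and Cldn11 were at 0.761, Cldn11 and Mal at 0.755 and Mobp and Mal at 0.789. The median and the lowest of the 36 pairs fell more. Without Day 1 FGF1 replicate 6 the 36 pairs ran from -0.00562 to 0.883 with a median of 0.431, Mbp and Mal being at 0.0576, and without replicates 1 and 6 they ran from -0.0176 to 0.8803 with a median of 0.407. The points of each correlation share libraries, depth and scaling, and the values describe these 47 mice.

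Among 10790 other genes with a mean of at least 10 CPM, those most like the mean of the 9 over the 47 libraries, by the same centred Pearson correlation, included Prr18 (0.839), Tmem88b (0.801), Efhd1 (0.798), Fa2h (0.797), Ermn (0.796), Anln (0.789), Padi2 (0.772), S1pr5 (0.770) and Galnt6 (0.769). Without the libraries farthest from the middle of the mean, Day 1 FGF1 replicates 6 and 10, they were 0.763, 0.840, 0.749, 0.691, 0.700, 0.726, 0.688, 0.673 and 0.664 in the same order. Fa2h encodes the enzyme that hydroxylates the sphingolipids of myelin, and Ermn a cytoskeletal protein of myelinating oligodendrocytes.

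Other genes of myelin and of the oligodendrocyte lineage, taken from lists, show how far the pattern of the 9 was shared. Of 19 other myelin protein genes 15 fell and 2 rose on Day 1, beside 21.6% and 23.4% of all genes. Their median log2 fold change was -0.71. On Day 5, 4 and 7 rose against the non-diabetic and diabetic vehicle mice with 0 falling, beside 3.25% and 5.79% of all genes that rose. The exceptions on Day 1 were Gjb1, a gap junction connexin, and Cd9, a tetraspanin, which rose by 2.19 and 2.02 while Anln and Sept4, of the septin scaffold, fell by 1.38 and 1.15. The list summed to means of 3919 and 2482 CPM on Day 1 (vehicle and FGF1), 3506, 3219.5 and 4588 CPM on Day 5 (non-diabetic vehicle, diabetic vehicle and FGF1) and 5499 and 6136 CPM on Day 42 (vehicle and FGF1). The 9 themselves summed to 3139 and 2026 CPM, 4024, 3841 and 5054 CPM, and 4727 and 5124 CPM in that order. Without Day 1 FGF1 replicates 1 and 6 the Day 1 FGF1 means were 2364 CPM for the list and 1874 CPM for the 9.

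Genes of myelin lipid synthesis, to which Ugt8a belongs, numbered 12 on the list. Of these 1 fell and 2 rose on Day 1 (median 0.013), beside 21.6% and 23.4% of all genes. On Day 5, 2 and 3 rose against the non-diabetic and diabetic vehicle mice, beside 3.25% and 5.79% of all genes. Fa2h was at -0.076 on Day 1 and rose by 0.50 and 0.69 on Day 5. Gal3st1, which adds sulfate to galactosylceramide, rose by 0.58 against the diabetic vehicle mice. Aspa, which frees acetate for lipid synthesis, fell by 2.06 on Day 1, and Elovl1, which lengthens fatty acids, rose by 1.12. Fa2h, like Ugt8a, passed the test in both Day 5 comparisons and not on Day 1. Of 10 transcription factors of the lineage 3 fell and 1 rose on Day 1, beside 21.6% and 23.4% of all genes. In each Day 5 comparison 3 rose, beside 3.25% and 5.79% of all genes. Nkx6-2 and Sox8 fell by 1.085 and 1.05 on Day 1 and did not pass on Day 5, at -0.20 and -0.39 for Nkx6-2 and 0.15 and 0.17 for Sox8. Zfp488 fell by 0.49 on Day 1 and rose by 0.86 and 1.03 on Day 5, where Nkx2-2 rose by 0.62 and 0.55. Myrf, which switches on the myelin genes, did not pass the test on Day 1 at -0.14, nor on Day 5 at 0.21 and 0.26 (edgeR adjusted p = 0.273, 0.257 and 0.0784), and neither did Sox10, at 0.16, 0.49 and 0.45 (adjusted p = 0.4926, 0.0693 and 0.0697).

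Beside the myelin genes, 14 other markers of mature oligodendrocytes split on Day 1, with a median of 0.022. There 6 were lower and 4 higher, beside 21.6% and 23.4% of all genes. On Day 5, beside 3.25% and 5.79% of all genes, 4 and 3 of these markers rose. They summed to 1133 and 1384 CPM on Day 1, to 1149.9, 1114 and 1464 CPM on Day 5 and to 1494 and 1938 CPM on Day 42, with Apod the most abundant. The Day 42 FGF1 mice were spread widely there (SD 724, highest 3203), while Apod had a mean of 281 CPM in that group. Kcnj13, a choroid plexus marker, was also widely spread in that group. Its mean was 7.18 CPM (SD 8.46, highest 22.3), beside 2.52 CPM in the Day 42 vehicle mice. A part of choroid plexus in the Day 42 sums was not tested. Trf, Il33 and Klk6 rose by 2.23, 2.32 and 2.61 on Day 1 while Ppp1r14a fell by 1.09. Of 12 markers of precursors and newly formed oligodendrocytes 5 fell and 2 rose on Day 1, and 8 rose in each Day 5 comparison, beside the same shares of all genes. Bmp4 did not pass on Day 1, at 0.25, and rose by 1.85 and 1.91 on Day 5. Gpr17 fell by 1.07 on Day 1 and rose by 1.80 and 1.85 on Day 5. Enpp6 fell by 1.43 and rose by 1.499 and 1.79, and Neu4 fell by 1.24 and rose by 0.77 and 0.73, in the same comparisons. Their summed means were 814 and 794 CPM (Day 1 vehicle and FGF1), 794, 770.4 and 1211 CPM (Day 5 non-diabetic vehicle, diabetic vehicle and FGF1) and 1005 and 1026 CPM (Day 42 vehicle and FGF1), with Tnr the most abundant. On Day 42 and between the Day 5 vehicle groups 0 genes of any of these lists passed by edgeR, with at most 1 gene of a list at an unadjusted p under 0.05. The part of these cell stages in the values of the 9 was not tested.

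Markers of other cell types are to be read beside the shares of all genes that rose and fell. These were 23.4% and 21.6% on Day 1, and 3.25% and 1.4% on Day 5 against non-diabetic vehicle. Against diabetic vehicle they were 5.79% and 3.42%. At an unadjusted p under 0.05 edgeR counted 2348 and 3097 of all genes on Day 5 against non-diabetic and diabetic vehicle. Of 6 astrocyte genes 3 fell and 2 rose on Day 1 and 4 rose in each Day 5 comparison, and Gfap rose by 2.81, 1.29 and 1.28. Aqp4 was at 0.32 on Day 1, not passing, and rose by 0.98 and 1.006 on Day 5, while Gja1 and Slc1a3 fell by 0.77 and 0.38 on Day 1 and rose on Day 5, by 0.37 and 0.32 and by 0.23 and 0.22. The list summed to 3382 and 4230 CPM (Day 1 vehicle and FGF1), 3546, 3503 and 4294 CPM (Day 5 in the order above) and 3720 and 3932 CPM (Day 42), Slc1a2 being the most abundant. Of 5 microglial genes 3 rose and 1 fell on Day 1 and 4 rose in each Day 5 comparison, with sums of 203 and 236 CPM, 218.5, 193 and 277 CPM, and 226.5 and 245.5 CPM. Tmem119 rose by 1.15, 0.47 and 0.72, Csf1r by 0.54, 0.41 and 0.58 and Cx3cr1 by 0.51, 0.39 and 0.53 in these 3 comparisons, and P2ry12 fell by 0.66 on Day 1. Of 6 neuronal genes 3 fell on Day 1, Snap25 and Syt1 by 0.49 each and Stmn2 by 0.14, and 0 passed on Day 5 by edgeR, 1 of them having an unadjusted p under 0.05 in each comparison. That list summed to 4317 and 3545 CPM, 2834, 2856 and 2579 CPM, and 4710.3 and 4922 CPM, with Snap25 the most abundant over all libraries. Of 4 meningeal genes 2 rose on Day 1, Lum by 2.24 and Dcn by 1.39, with sums of 92.4 and 183 CPM. On Day 5 Lum rose by 1.19 against the non-diabetic vehicle mice and 0 meningeal genes passed against the diabetic ones by edgeR, 3 of 4 having an unadjusted p under 0.05 in each, with sums of 55.2, 61.1 and 94.5 CPM. Of 4 endothelial genes 1 rose on Day 1, Flt1 by 0.63, with sums of 95.6 and 122 CPM, and 1 rose in each Day 5 comparison, Pecam1 by 0.23 and 0.21, while Tek did not pass within a day (-0.22, 0.24 and 0.27), with sums of 118, 121 and 138 CPM. Kcnj13, the choroid plexus marker that was measured, fell by 3.51 on Day 1 from a mean of 2.39 CPM to 0.249 CPM, with a lowest value of 0. Of 8 markers of hypothalamic neurons Pomc rose by 1.71 and Pmch fell by 0.55 on Day 1. Of 2 Schwann cell genes measured, Pmp22 rose by 0.34 and Ncmap fell by 0.64 on Day 1, and Prx, Pmp2 and Egr2, with Ttr, Folr1 and Cldn2 of the choroid plexus, were not analysed here. The part of the mixture of cells in the values of the 9 genes was not tested.

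Since the 9 genes share regulators of the lineage, the 250 bases before their starts were searched, on both strands, for ACAAAG, which on the other strand reads CTTTGT, the core letters of the SOX family motif, and for the Myrf motif as CTGGCAC, on the other strand GTGCCAG, or as CTGGTAC, on the other strand GTACCAG. Of the 9 genes 8 were found in the RefSeq promoter table (GRCm38.p6), with 10 starts, and Mbp was not. The SOX letters stood before 4 of the 8, Mobp, Mag, Cnp and Opalin, and in 16.5% of all 32841 windows. Mobp held 6 matches, and windows with at least 4 made up 0.0213% of all. CTGGCAC stood before Mag and Cnp and in 4.19% of windows, and CTGGTAC before Mog and in 1.83%, while Mal, Cldn11 and Ugt8a held neither motif. Shown 5′ to 3′ on the strand of the gene, for the 5 genes with a match, matches are in capitals and none overlap: Mobp chr9:120149499-120149627 (plus), Mag chr7:30914923-30915042 (minus), Cnp chr11:100574772-100574903 (plus), Opalin chr19:41077114-41077252 (minus) and Mog chr17:37023399-37023518 (minus). A match describes letters only.
Mobp: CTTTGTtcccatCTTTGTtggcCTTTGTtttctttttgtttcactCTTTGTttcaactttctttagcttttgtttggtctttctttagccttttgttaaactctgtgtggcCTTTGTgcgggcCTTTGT
Mag: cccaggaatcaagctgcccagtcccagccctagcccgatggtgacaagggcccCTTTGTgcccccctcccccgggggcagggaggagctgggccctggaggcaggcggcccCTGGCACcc
Cnp: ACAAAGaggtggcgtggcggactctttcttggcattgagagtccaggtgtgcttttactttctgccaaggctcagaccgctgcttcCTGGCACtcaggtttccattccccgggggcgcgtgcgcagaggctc
Opalin: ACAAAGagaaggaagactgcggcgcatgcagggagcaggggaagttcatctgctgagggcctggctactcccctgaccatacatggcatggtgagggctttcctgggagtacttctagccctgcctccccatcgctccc
Mog: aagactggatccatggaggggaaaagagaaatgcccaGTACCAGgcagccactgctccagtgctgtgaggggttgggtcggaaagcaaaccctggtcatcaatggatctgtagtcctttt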

How the data were processed

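The deposited counts of the authors were read as they stood: whole numbers per gene and library, made by alignment with STAR to a genome that the submitters' notes call GRCh38, a human build name, although the gene symbols are mouse. The counting program, and whether it used strand, are not given in the sources used here. Library names were matched to the labels. No gene was removed (filterByExpr removed 0 of 14221).

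All 47 libraries were fitted together with edgeR 4.0.16 (quasi-likelihood, TMM scaling, 1 mean for each of 7 groups), in R 4.3.3. The groups shared 1 estimate of spread for each gene, although the spread of the 9 differed between groups. On log2 of CPM plus 0.5 their median SD was 0.41 in the Day 1 FGF1 mice and 0.13 in the Day 5 FGF1 mice. The p of this fit can thus be too large on Day 5 and too small on Day 1. Adjusted p are Benjamini-Hochberg over 14221 genes, with 0.05 as threshold. Exact permutation tests were two-sided on log2 of CPM plus 0.5 within a day. DESeq2 1.42.0, limma 3.58.1 (voom with quality weights), other scalings and filters, and leaving out single libraries were alternatives. Leaving out each Day 1 FGF1 and each Day 5 mouse, the 2 deepest Day 5 FGF1 libraries, and Day 1 FGF1 replicates 1 and 6 for means, spread and correlations, was added after seeing the data. The members and the lists were chosen with earlier results of these data known.

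All 9 members are named. Of each other list up to 4 genes are named, those with the largest absolute log2 fold change over the FGF1 comparisons within a day among genes that passed in any comparison, with Myrf and Sox10 in every case. Genes most like the mean of the members, by correlation over the libraries, are named. Oxt, the ratios between members and the pairs of members singled out were chosen after their values were seen. Gene positions are from GENCODE, build GRCm38.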

Additional observations from a re-analysis of the deposited data

Results flagged for a closer look

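In 63 groups of the 9 genes, 4 had 1 mouse far from the others of its group. The rule flags about 1 in 20 groups by chance when groups are independent. The 9 genes tended to be high or low together, and the 4 came only from Day 1 FGF1 replicate 6 and Day 5 diabetic vehicle replicate 1. That rate therefore cannot tell whether the 4 arose by chance, which was not tested. Day 1 FGF1 replicate 6 stood high for Mbp, at 1516 CPM with the next mouse at 1148 CPM, and for Mag, at 174 CPM with the next at 115 CPM. Day 5 diabetic vehicle replicate 1 stood high for Mbp, at 2367 CPM with the next mouse at 1758 CPM, and for Mog, at 71.8 CPM with the next at 55.0 CPM.

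The response to FGF1 differed between days by the test of the difference itself (edgeR, adjusted p under 0.05). From Day 1 to Day 5 the log2 fold change was higher by 0.69 for Mbp, 1.91 for Mog, 0.93 for Mobp, 1.16 for Cnp, 1.47 for Cldn11, 1.22 for Opalin, 2.23 for Mal and 0.86 for Ugt8a. From Day 1 to Day 42 it was higher by 0.61 for Mbp, 1.84 for Mog, 0.65 for Mobp, 0.73 for Cnp, 1.04 for Cldn11, 1.14 for Opalin and 1.88 for Mal. The Mbp difference between Day 42 and Day 1 was lost in 7 of 56 alternatives, each without 1 mouse, down to 0.43 (adjusted p = 0.145) without Day 1 vehicle replicate 4, in a range of 0.00597 to 0.145. Between Day 5 and Day 1 Mbp was at 0.51 (adjusted p = 0.0524) without Day 1 vehicle replicate 4 and Ugt8a at 0.69 (adjusted p = 0.0670) without replicate 2. Each day had its own cohort of mice, and day cannot be told apart from cohort or preparation.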

How the results depend on the processing

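On Day 1 the falls of Mog, Mal, Mobp, Cnp, Cldn11 and Opalin passed under all 57 alternatives. The Day 5 rises of Cnp, Mal and Ugt8a did so against non-diabetic vehicle (57) and diabetic vehicle (56). Of the alternatives 47 left out 1 library each, and only 14 libraries were of Day 1. A mouse outside the groups compared reached a result only through the shared estimate of spread and the scaling. The fit without a filter repeated the main fit, since 0 genes were removed. Each count of alternatives given here thus includes many that could hardly move the result. Day 5 against non-diabetic vehicle, where 5 genes passed, gave 8 with limma voom and 3 without the 2 deepest Day 5 FGF1 libraries. It gave 3 to 5 when each mouse was left out in turn. Shares of all genes are given for the main fit only. Of the other counts 441 were within 1.5 times, and of the log2 fold changes 3962 kept direction and side of the threshold, 59 lost the call, 16 gained it and 22 changed sign. Among exact p, 675 kept both, 28 lost p under 0.05, 12 gained it and 5 belonged to a changed sign. Every change of sign was in a difference that had not passed.

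Other changes of sign were these, on the log2 scale. Day 42 minus Day 5 was 0.072 for Mbp with limma voom and -0.0094 for Mag with the Day 5 vehicle groups merged, and Ugt8a on Day 42 was -0.00045 with limma voom. With each mouse left out in turn, Day 1 ran from -0.23 to 0.14 for Mag and from -0.22 to 0.069 for Ugt8a. The Day 5 vehicle difference ran from -0.13 to 0.021 for Mbp and from -0.20 to 0.057 for Opalin, and Day 42 from -0.0030 to 0.30 for Ugt8a. Day 5 minus Day 1 ran from -0.061 to 0.30 for Mag. Day 42 minus Day 5 ran from -0.17 to 0.039 for Mbp, from -0.12 to 0.030 for Mog, from -0.044 to 0.14 for Mag and from -0.25 to 0.011 for Opalin, and Day 42 minus Day 1 from -0.022 to 0.34 for Mag. The exact permutation p then ran from 0.351 to 0.901 for Mag and from 0.295 to 0.927 for Ugt8a on Day 1, from 0.154 to 0.952 for Mbp and from 0.383 to 0.924 for Opalin between Day 5 vehicles, and from 0.294 to 0.952 for Ugt8a on Day 42. The cause was not tested.

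No paired analysis was possible because replicate numbers are the order of deposition and pair no mice. There was no lean or uninjected group, vehicle mice numbered 4 on Day 1 and 5 on Day 42, and each day had a cohort of its own. The Day 5 libraries were shallower than most others, and Opalin had the lowest counts of the 9. Bulk levels do not separate cell number from RNA per cell, and a p that missed the threshold does not show that groups were alike.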
